A study of Mus musculus with 4 samples.

Results

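The BCL-2 family genes were followed on 4 Affymetrix mouse arrays of MDSCs in which the long noncoding RNA lnc-C/EBPβ had been knocked down or expressed from a lentivirus. The set lists 10 genes, Bcl2, Bcl2l1, Mcl1, Bax, Bak1, Bcl2l11, Bid, Bad, Bbc3 and Pmaip1. The genes were listed by function, with earlier results of these data known, and no measured value entered the rule, which took the probe sets annotated to 1 gene symbol only. In this way 9 of the 10 genes were found, with 29 of the 34958 probe sets annotated to 1 gene, and Bax had no probe set of its own in the annotation used and is not analysed here. In all, 18194 genes were measured on the arrays.

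The cells came from the bone marrow of C57BL/6 mice. All groups received a lentivirus and then spent 4 days in GM-CSF and IL-6, which yields MDSCs, immature myeloid cells that restrain T cells. The arrays were kdLNC (an shRNA lentivirus against the RNA, which the labels call lncMDSC), kdNC (a control shRNA lentivirus), oeLNC (a lentivirus carrying the RNA) and oeNC (the control lentivirus of the overexpression). Each group was 1 sample on 1 array, and the labels do not say how many mice or cultures it came from, so no difference below has a replicate error or a p-value, and limma, which the methods name, could not be fitted. The labels name no sorting after culture, and in such bulk RNA fewer cells of a type cannot be told apart from less RNA per cell.

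Proteins of this family decide at the mitochondrial outer membrane whether a cell lives. The pro-survival proteins BCL-2, BCL-XL (encoded by Bcl2l1) and MCL-1 hold the effectors BAX and BAK in check, and the BH3-only proteins BIM (Bcl2l11), BID, BAD, PUMA (Bbc3) and NOXA (Pmaip1) bind the pro-survival proteins or the effectors and so tip the balance towards release of cytochrome c. Neutrophils are short-lived cells that lean on MCL-1, lymphocytes depend on BCL-2, and BIM sets the lifespan of many myeloid cells.

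To show the DNA ahead of the members that differed most, the RefSeq promoter windows (GRCm38.p6) of 9 members, 15 windows in all with none for Pmaip1, were searched on both strands over the 250 bases before the start for 9 motifs. The windows belong to annotated starts and were not linked to the arrays by any measurement. The Bcl2 window is shown because Bcl2 differed most between arrays. It lies at chr1:106714291-106714540 on the minus strand, and capitals mark CCGCCC or its reverse complement, a core bound by SP and KLF factors.
Bcl2: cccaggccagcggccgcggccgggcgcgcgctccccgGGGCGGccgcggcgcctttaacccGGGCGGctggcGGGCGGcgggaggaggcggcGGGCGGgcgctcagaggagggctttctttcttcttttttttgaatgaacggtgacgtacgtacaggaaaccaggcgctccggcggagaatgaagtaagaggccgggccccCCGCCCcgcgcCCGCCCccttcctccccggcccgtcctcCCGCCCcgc
A window ahead of a Bcl2l11 start, at chr2:128125788-128126037 on the plus strand, is shown for its match to TGTTTAC (in capitals, here as the reverse complement), the letters read by FOXO factors, which are known to switch on BIM.
Bcl2l11: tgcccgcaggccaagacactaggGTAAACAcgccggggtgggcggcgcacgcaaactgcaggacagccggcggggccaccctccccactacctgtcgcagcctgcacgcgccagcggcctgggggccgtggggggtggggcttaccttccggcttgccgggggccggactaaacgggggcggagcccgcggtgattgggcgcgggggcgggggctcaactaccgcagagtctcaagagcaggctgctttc
The only member window with TTGCNNAA, a form of the C/EBP site, belonged to Bid. The match, in capitals, is again the reverse complement. The 30 bases around it at chr6:120916896-120916925 on the minus strand are shown because the lncRNA is named for C/EBPβ.
Bid: gacccttgggtTTCCGCAAagtgtggccag

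CCGCCC was found in 10 of the 15 member windows and in 32.7% of all 32851 windows. TGTTTAC was found in 2 member windows, those of Bcl2l11 and Bbc3, and in 3.17% of all windows, and TTGCNNAA in 1 and in 9.56%. ATTGG, the CCAAT box, was found in 4 member windows and in 33.8% of all windows. The p53 decamer was matched in 1, that of Bax, and in 7.13%. TTCNNNGAA (STAT, 7.02% of all windows), TGANTCA (AP-1, 6.75%), TGACGTCA (CRE, 1.55%) and TTGCATCA (a CHOP-ATF site, 0.791%) were found in none of the 15. The C/EBP and CHOP-ATF forms share their first 4 letters, and the Bcl2l11 window also holds CCGCCC, left in lower case. These are matches of letters and not sites.

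The level of a probe set is given throughout as log2 of its deposited intensity. The median level of an array lay between 4.17 and 4.24. Of the neutrophil and myeloid markers, S100a9 was at 13.3 to 13.5 and Csf2rb at 11.3 to 11.4 on all arrays. Other neutrophil markers were not so even. Ltf had a level of 6.99 in kdLNC and 9.69 in kdNC. For kdLNC minus kdNC, Camp had -1.50, Cxcr2 -1.10, Mmp9 -1.07 and Ngp -1.04. Of the 10 mature neutrophil markers measured, 6 fell and 4 rose on knockdown. Ly6g, Ly6c1 and Ly6c2 had no probe set of their own. No probe set under the name of lnc-C/EBPβ was found, so the targeted RNA is not analysed here and the groups rest on the labels. The log2 ratio of the 3' over the 5' control probe sets of beta-actin, a measure of RNA integrity, was 1.96 in kdLNC, 1.61 in kdNC, 1.97 in oeLNC and 1.96 in oeNC. That of Gapdh was 0.69 in kdLNC, 0.51 in kdNC, 0.65 in oeLNC and 0.53 in oeNC, higher in both treated arrays than in their controls.

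A gene was represented by its brightest probe set, and all 9 measured genes were above the 50th percentile of an array in every comparison. A difference was counted from 1.5-fold (0.585 on the log2 scale). As a yardstick, the SD of the difference between the control arrays (oeNC minus kdNC) over the 500 genes nearest in level was 0.50 to 0.64 for the 9 genes. It mixes differences of virus, culture and array, which cannot be told apart, and is no replicate error. Levels of different probe sets depend on the probes and were not compared with each other.

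In kdLNC against kdNC, 1 of the 9 genes was at least 1.5-fold higher, Bcl2, where 2.36% of all genes were. None was 1.5-fold lower, where 1.96% of all genes were. The median difference of the 9 genes was 0.0090, and of all genes -0.051. In oeLNC against oeNC, 1 of the 9 genes was at least 1.5-fold higher, again Bcl2, against 3.93% of all genes, and none was 1.5-fold lower, against 5.38%. This count was 0 after median centring, with an offset of 16, with the mean of probe sets, with the filter at the 70th percentile and with both controls averaged. The median was 0.11, and 0.038 over all genes. Between the control arrays, 3 of the 9 genes were at least 1.5-fold lower in oeNC than in kdNC, Bcl2, Bcl2l1 and Bid, against 12.2% of all genes, and none was higher, against 9.22%. With the mean of probe sets only Bcl2 was 1.5-fold lower (-0.91), Bcl2l1 had -0.53 and Bid -0.36, and Bcl2l11 was higher. The median there was -0.27, and -0.019 over all genes. More genes of the family passed 1.5-fold between the control arrays than within either pair, as did more of all genes.

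**Figure D1:**
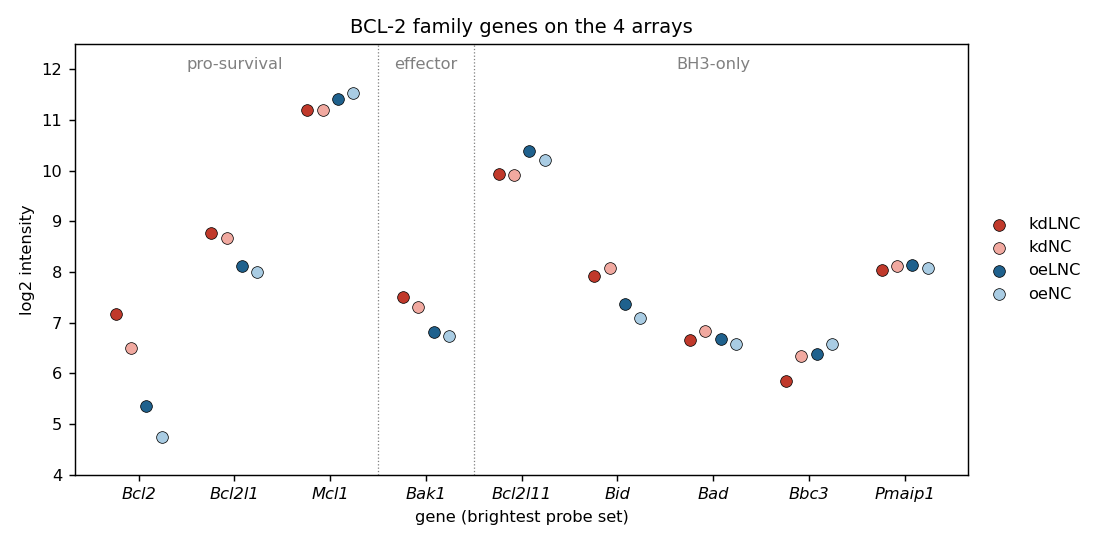
Level (log2 intensity) of the brightest probe set of each measured gene on the 4 arrays, 1 point per array. For Bcl2 the kdLNC and kdNC points, at 7.17 and 6.49, lie above those of oeLNC and oeNC, at 5.36 and 4.74, while the points of Pmaip1 lie between 8.04 and 8.14.

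Among the pro-survival genes, Bcl2 stood out. Its brightest probe set, 1457687_at, had a level of 7.17 in kdLNC and 6.49 in kdNC, and of 5.36 in oeLNC and 4.74 in oeNC. The arrays thus ran from kdLNC, the highest, down to oeNC, the lowest, and both treated cultures lay above their own control. The log2 difference was 0.68 on knockdown and 0.63 on overexpression, each a little above the SD of the control difference at that level (0.55). The overexpression value was 0.56 after median centring, 0.42 with the offset of 16 and 0.33 with the mean of probe sets, all short of 1.5-fold. With both controls averaged it turned to -0.25, and the knockdown value was 1.56. Between the control arrays it was -1.76, a level 3.38-fold lower in oeNC than in kdNC.

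The other 4 probe sets of Bcl2 were dimmer. On knockdown all 5 were higher in kdLNC, by 0.37 to 1.09 on the log2 scale, and 4 of them by at least 1.5-fold. Of these 4, 1437122_at, with levels of 4.76 in kdLNC and 4.11 in kdNC, was above the array median in kdLNC only. Of the 859 genes with 5 or more probe sets, 5.12% had all of them higher in kdLNC. The largest difference, 1.09, was that of 1440770_at, with levels of 5.89 in kdLNC and 4.80 in kdNC. On overexpression 4 of the 5 probe sets were higher in oeLNC and 1 was lower (-0.08), with 1 past 1.5-fold, but 3 of the 5, that lower one included, were not above the filter in this pair. Between the control arrays all 5 were lower in oeNC, by differences of -0.27 to -1.76, which was so for 6.98% of the genes with 5 or more probe sets. The comparisons of oeLNC and of kdLNC each share a control array with this difference, so that a low value of oeNC enters the overexpression difference of Bcl2 as a higher one.

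Only 6 of 11282 genes above the filter in both pairs (0.0532%) were at least 1.5-fold higher in both kdLNC and oeLNC. Beside Bcl2 these were Calhm6, Ccl8, Clic5, Gimap4 and Il10, named after their values were seen. All 6 were at least 1.5-fold lower in oeNC than in kdNC, where 12.2% of all genes were. This is in part built in, as a low oeNC value favours both the rule that picked them and this difference. The genes whose levels over the 4 arrays, after removal of each gene's mean, lay nearest to those of Bcl2 among 12091 genes were Enpp4 (Euclidean distance 0.13 on the log2 scale), Gimap7 (0.14), Rnf225 (0.15), Il10 (0.24) and Socs4 (0.26). Il10, which encodes an interleukin that dampens inflammation, had levels of 8.45 in kdLNC, 7.66 in kdNC, 6.82 in oeLNC and 6.17 in oeNC, the same order of arrays as Bcl2. With 4 arrays such a likeness is a description only.

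**Figure D2:**
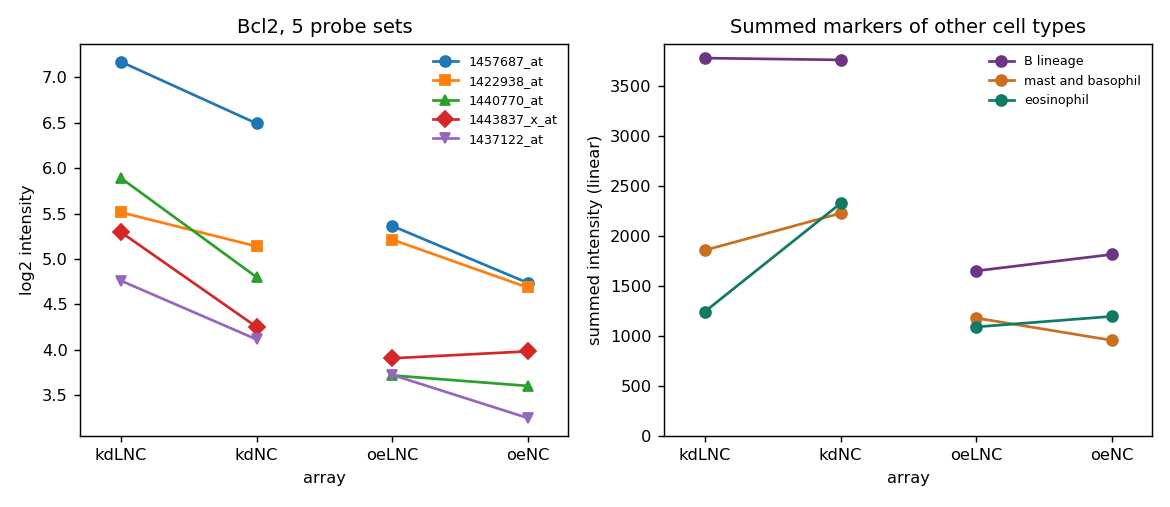
On the left, level (log2 intensity) of each Bcl2 probe set on the 4 arrays, with lines joining the arrays of a pair. Right, summed linear intensity of B-lineage, mast cell and basophil, and eosinophil markers on the same arrays. The 5 Bcl2 probe sets are higher in kdLNC than in kdNC. The B-lineage sum, over brightest probe sets, is 3784 in kdLNC and 3766 in kdNC.

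Some markers of other cell types, the B-lineage and the mast cell and basophil lists, were lower in oeNC than in kdNC, as Bcl2 was. Other lists went the other way. The megakaryocyte and platelet sum was 810 in oeNC and 444 in kdNC, and the monocyte and macrophage sum 11874 in oeNC and 8130 in kdNC. Of 8 B-lineage genes 7 were measured. At the brightest probe set all 7 were lower in oeNC than in kdNC (median -1.34), 5 of them by at least 1.5-fold, where 12.2% of all genes were. Other probe sets had -1.26 for Ms4a1, -0.91 for Igll1, 0.23 for Pax5 and -1.54 to 0.34 for Ebf1. The summed intensity of the 7 genes was 1817 in oeNC and 3766 in kdNC. All 5 measured of 6 mast cell and basophil genes were at least 1.5-fold lower in oeNC, with sums of 957 in oeNC and 2230 in kdNC. Of these Gata2 passed narrowly (-0.59), and its second probe set had 0.31, where that of Ms4a2 had -0.69. No measured marker was at 0 on any array, but no probe set was, as the lowest intensity of an array was 1.33 to 1.46. This therefore says nothing of whether a marker was detected. In the knockdown pair none of the 7 B-lineage genes differed by 1.5-fold at its brightest probe set (sums 3784 in kdLNC and 3766 in kdNC, median 0.02). Their other probe sets had 0.90 for Ms4a1, 0.04 to 0.73 for Ebf1, 0.37 for Igll1 and -0.14 for Pax5. The mast cell and basophil sum was 1860 in kdLNC and 2230 in kdNC. In the overexpression pair the B-lineage sum was 1652 in oeLNC and 1817 in oeNC, and all 5 mast cell and basophil genes were higher in oeLNC, 1 of them, Ms4a2, by at least 1.5-fold (0.63), with sums of 1180 in oeLNC and 957 in oeNC. Their part in the Bcl2 values was not tested.

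Bcl2l1, which encodes BCL-XL, was nearly level within each pair at its brightest probe set. Its level was 8.77 in kdLNC and 8.67 in kdNC, and 8.13 in oeLNC and 8.0 in oeNC. Both overexpression arrays thus lay below both knockdown arrays, with a control difference of -0.66. The other 3 probe sets lay below the 50th percentile of all probe sets by their mean. They were lower in kdLNC (-0.34 to -0.14) and higher in oeLNC (0.23 to 0.52), so that on knockdown the direction of Bcl2l1 depended on the probe set.

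Mcl1 encodes a short-lived protein that mature neutrophils need to survive. Its brightest probe set, 1448503_at, had levels of 11.20 in kdLNC and 11.19 in kdNC, and of 11.42 in oeLNC and 11.53 in oeNC. No Mcl1 probe set differed by 1.5-fold in either treated pair. On knockdown they ran from -0.34 to 0.38 with 4 of 6 higher in kdLNC, and on overexpression from -0.12 to 0.44 with 3 of 6 higher in oeLNC.

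Between the control arrays the Mcl1 probe sets parted. The probe sets 1448503_at and 1416881_at had higher levels in oeNC, with differences from kdNC of 0.34 and 0.70. The other 4 were all lower in oeNC by at least 1.5-fold, from -0.84 for 1456381_x_at to -1.11 for 1437527_x_at, which had levels of 9.52 in oeNC and 10.63 in kdNC. Of the genes with 5 or more probe sets, 10.4% had some 1.5-fold higher and others 1.5-fold lower in oeNC. Averaged over its probe sets, Mcl1 had a control difference of -0.50, where the brightest had 0.34. Which Mcl1 transcripts each probe set reads was not analysed here, and 3 of the 4 lower ones carry the mark of probes that can match other transcripts.

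**Figure D3:**
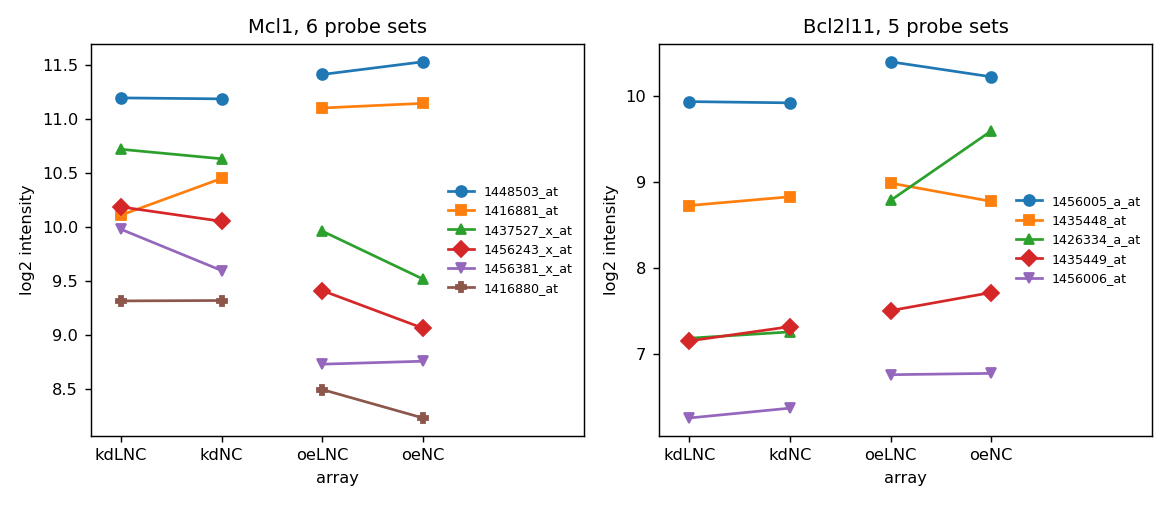
Level (log2 intensity) of every probe set of Mcl1 (left) and Bcl2l11 (right) on the 4 arrays, with lines joining the arrays of a pair. In Mcl1, 2 probe sets lie higher in oeNC than in kdNC and 4 lie lower, and in Bcl2l11 the probe set 1426334_a_at is at 9.59 in oeNC and 7.26 in kdNC.

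Of the effectors only Bak1 was measured. Its brightest probe set had levels of 7.50 in kdLNC and 7.31 in kdNC, and of 6.81 in oeLNC and 6.73 in oeNC, with differences of 0.19 on knockdown and 0.08 on overexpression. The overexpression arrays again lay below the knockdown arrays, and the control difference, -0.58, was just short of the threshold. A second, dimmer probe set of Bak1 had -0.19 on knockdown, 0.12 on overexpression and -0.15 between the controls.

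The 5 BH3-only genes had a median of -0.16 on knockdown and 0.11 on overexpression, and none passed 1.5-fold in either pair at its brightest probe set. Bcl2l11 was nearly level on knockdown, with 9.93 in kdLNC and 9.92 in kdNC, and had 10.39 in oeLNC and 10.22 in oeNC. All of its 5 probe sets lay between -0.17 and 0.01 on knockdown.

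The probe set 1426334_a_at of Bcl2l11 departed from the others in the overexpression cultures. It had levels of 7.19 in kdLNC and 7.26 in kdNC, and of 8.79 in oeLNC and 9.59 in oeNC. The difference was -0.81 for oeLNC minus oeNC and 2.33 for oeNC minus kdNC, which is a level 5.04-fold higher in oeNC. The other 4 probe sets lay between -0.21 and 0.21 on overexpression and between -0.05 and 0.40 between the controls. A spread of at least 2 on the log2 scale over the probe sets of a gene was seen between the controls in 5.94% of the genes with 5 or more probe sets.

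Morrbid, a long noncoding RNA known to restrain Bcl2l11 in short-lived myeloid cells, had levels of 8.51 in kdLNC and 9.17 in kdNC, and of 7.82 in oeLNC and 7.59 in oeNC. Its difference was -0.66 for kdLNC minus kdNC and -1.58 for oeNC minus kdNC, and its second probe set had -0.27 and -0.34. Bcl2l11 itself differed by 0.01 in the first of these comparisons and by 0.30 in the second. The summed intensity of 5 measured eosinophil markers was 1245 in kdLNC and 2328 in kdNC, and 1091 in oeLNC and 1196 in oeNC. Like Morrbid it was highest in kdNC. Within the overexpression pair Morrbid was higher in oeLNC, and the eosinophil sum was lower there. Of the 5 markers, however, 3 were higher in oeLNC and 2 lower (median 0.04). All 5 markers were lower in kdLNC than in kdNC, and 4 of 5 lower in oeNC than in kdNC. The part of eosinophils in the Morrbid values was not tested.

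Bid, which caspase-8 cleaves to link death receptors to mitochondria, had levels of 7.92 in kdLNC and 8.08 in kdNC, and of 7.36 in oeLNC and 7.09 in oeNC. The differences within pairs were -0.16 and 0.27, and that between the controls -0.98. Among its dimmer probe sets, 1447873_x_at had the largest differences within pairs of any BH3-only probe set. Its level was 4.81 in kdLNC and 3.66 in kdNC, and 3.15 in oeLNC and 4.14 in oeNC, so that the knockdown difference was 1.15 and the overexpression difference -0.98. In the overexpression pair this probe set was not above the filter, and in the knockdown pair it passed only through kdLNC. The third probe set had -0.32 and -0.16, so neither direction was shared by all Bid probe sets.

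Bbc3, whose protein PUMA is made in response to p53, had the lowest knockdown difference of the 9 measured members. It had levels of 5.85 in kdLNC and 6.34 in kdNC, a difference of -0.49 within the control SD of 0.64, and of 6.39 in oeLNC and 6.58 in oeNC. Its control difference was 0.24, and kdLNC was the lowest of the 4 arrays. Pmaip1, which encodes the MCL-1 antagonist NOXA, stayed between 8.04 and 8.14 on all arrays. Bad, whose protein is silenced by survival kinases, was nearly as even, at 6.66 in kdLNC and 6.85 in kdNC, and 6.68 in oeLNC and 6.57 in oeNC, and its second probe set had the same directions in all comparisons.

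**Figure D4:**
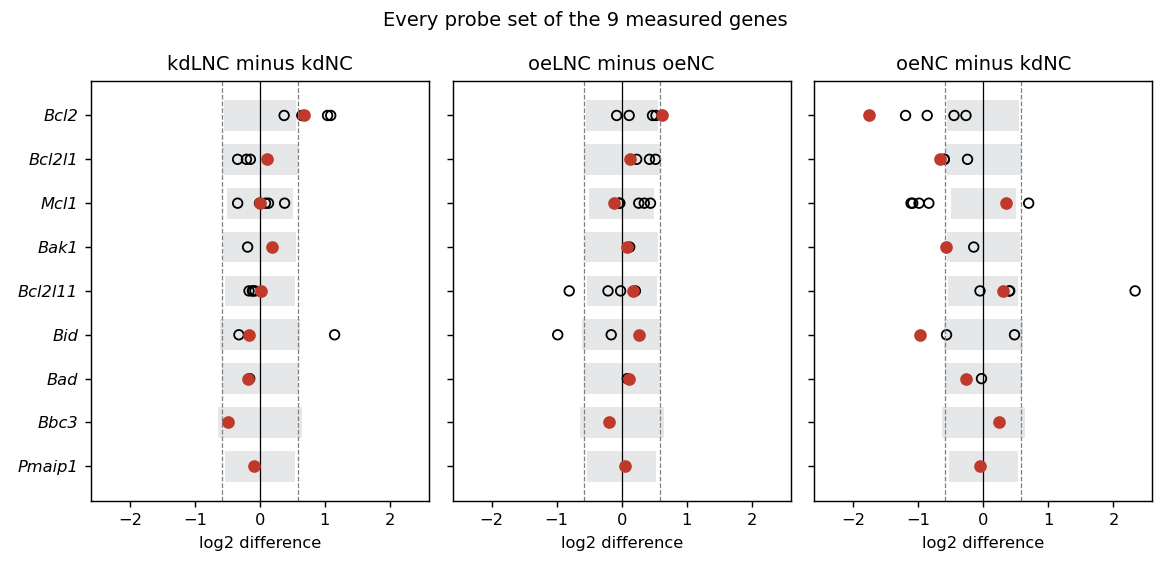
Log2 difference of every probe set of the 9 genes in each comparison. Red points are the brightest probe set, open points the others, grey bars reach 1 SD of the control difference above and below 0, and dashed lines mark 1.5-fold. In the knockdown panel the Bcl2 points run from 0.37 to 1.09, and in the control panel those of Mcl1 run from -1.11 to 0.70.

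Over all 29 probe sets of the family, 26 were above the filter in the knockdown pair. Of these 5 were at least 1.5-fold higher in kdLNC, 4 of Bcl2 and 1 of Bid, and none was lower, where 3.47% of all probe sets were higher and 1.78% lower. The Bcl2 probe set 1437122_at and the Bid probe set 1447873_x_at passed the filter only through kdLNC, the array where they were high. In the overexpression pair 21 were above the filter, with 1 higher in oeLNC (Bcl2) and 1 lower (Bcl2l11), against 3.85% and 7.28% of all probe sets. Between the controls 24 were above it, with 2 higher in oeNC (Mcl1 and Bcl2l11) and 8 lower, against 10.7% and 13.9%. Probe sets of a gene share its transcripts and are not independent.

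Most genes of the rest of the death pathway lay within 1.5-fold, as did most of all genes. The shares of all genes at least 1.5-fold higher and lower were 2.36% and 1.96% in kdLNC, and 3.93% and 5.38% in oeLNC. Counts here are of genes above the filter, each at its brightest probe set. Of 12 measured further BCL-2 family genes, 9 above the filter, 1 was at least 1.5-fold lower in kdLNC, Bnip3 (-0.59), which encodes a hypoxia-induced mitochondrial protein, none was higher, and none differed by as much in oeLNC. Bmf, named after its values were seen, had -0.40 in oeLNC at its brightest probe set, but -1.41 and -0.61 at its others. Between the controls it had 0.40 at the brightest and 0.86 to 1.05 at the others. Of 12 measured genes of the apoptosome and caspases, none differed by 1.5-fold on knockdown. On overexpression 2 were lower, Dffb, the nuclease that cuts DNA in dying cells (-0.84), and Endog, a mitochondrial nuclease (-0.66), but the second probe sets of Dffb and Endog had 0.40 and 0.07. Dffb had levels of 4.77 in kdLNC, 4.83 in kdNC, 4.86 in oeLNC and 5.70 in oeNC, so that oeNC was the high array.

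Among 8 measured inhibitors of apoptosis, none differed by 1.5-fold on knockdown. On overexpression Birc5, survivin, which is made in dividing cells, was lower (6.12 in oeLNC and 6.85 in oeNC, -0.73) and Naip6, a sensor of bacterial proteins, higher (6.58 in oeLNC and 5.92 in oeNC, 0.66). Of 7 measured proliferation markers 6 were lower in oeLNC than in oeNC (median -0.38), and their part in the value of Birc5 was not tested. Of 10 measured genes of the death receptor pathway, 8 above the filter on knockdown and 9 on overexpression, none passed 1.5-fold in either pair. Between the controls Fas was higher in oeNC (1.04) and Tnfsf10, the ligand TRAIL, lower (-1.45), both named after their values were seen.

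Of 16 measured genes whose proteins bind, modify or degrade family members, 1 passed 1.5-fold in the treated pairs, Ywhaz, a 14-3-3 protein of the group that holds phosphorylated BAD in the cytosol (0.64 higher in kdLNC, with its other probe sets from -0.05 to 1.22). Between the controls 2 of the 16 were higher in oeNC and 1 was lower, Pim3 (1.33), Pim2 (0.61) and Akt1 (-0.80), named after their values were seen. Their other probe sets ran from -0.24 to 1.25 for Pim3 and from -0.30 to 0.09 for Akt1. Of 13 measured transcription regulators of the family, the CHOP gene Ddit3 was lower in kdLNC at both of its probe sets (-0.61 and -0.62). Trib3, a CHOP target, and Stat5b were lower in oeLNC (-0.76 and -0.65), and their second probe sets had -0.30 and -0.08. In the control comparison Trib3 had 0.90 and Stat5b 1.52, and their second probe sets had 0.67 and -0.46, so the direction of Stat5b depended on the probe set. Foxo3, which encodes a FOXO factor, had levels of 8.42 in kdLNC and 8.84 in kdNC, a difference of -0.42.

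Targets of p53 were mostly lower after knockdown. Of 18 measured genes 17 were lower in kdLNC than in kdNC by any amount, where 59.1% of all genes were, and the median was -0.24. Of the 17 above the filter 4 were at least 1.5-fold lower at the brightest probe set, where 1.96% of all genes were, and none was higher. Perp, a membrane protein of p53-dependent death, had levels of 4.29 in kdLNC and 5.43 in kdNC (-1.14). Zmat3, an RNA-binding protein, had 5.0 in kdLNC and 5.89 in kdNC (-0.88), Phlda3, an inhibitor of AKT, 5.89 in kdLNC and 6.73 in kdNC (-0.83), and Gtse1, a cell cycle gene named after its value was seen, -0.66. Cdkn1a, the p21 gene, had 10.81 in kdLNC and 11.33 in kdNC (-0.52), short of the threshold, and Mdm2 had -0.26. Other probe sets did not all share this direction. Among them Sesn1 reached 0.94, Rrm2b 0.56 and Mdm2 0.24, while Cdkn1a had -0.70 and Ccng1 -0.59 and -0.40. With the mean of probe sets 16 of the 18 were lower in kdLNC. In the control comparison Perp had -1.12, Zmat3 -0.70 and Phlda3 0.65. With kdNC and oeNC averaged as the control, 14 of the 18 were lower in kdLNC, and 3 by 1.5-fold. On overexpression 13 of the 18 were lower in oeLNC, where 44.2% of all genes were, and none of the 17 above the filter passed 1.5-fold (Eda2r, under it and named after its value was seen, had -0.67). Of 10 measured mature neutrophil markers 6 were lower in kdLNC, 5 of them by at least 1.5-fold, and 4 were higher (median -0.70). The summed intensities of these markers were 39831 in kdLNC and 47023 in kdNC, and their part in the p53 target values was not tested. Within the family, the p53-responsive members Bbc3 and Pmaip1 had -0.49 and -0.09 on knockdown.

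**Figure D5:**
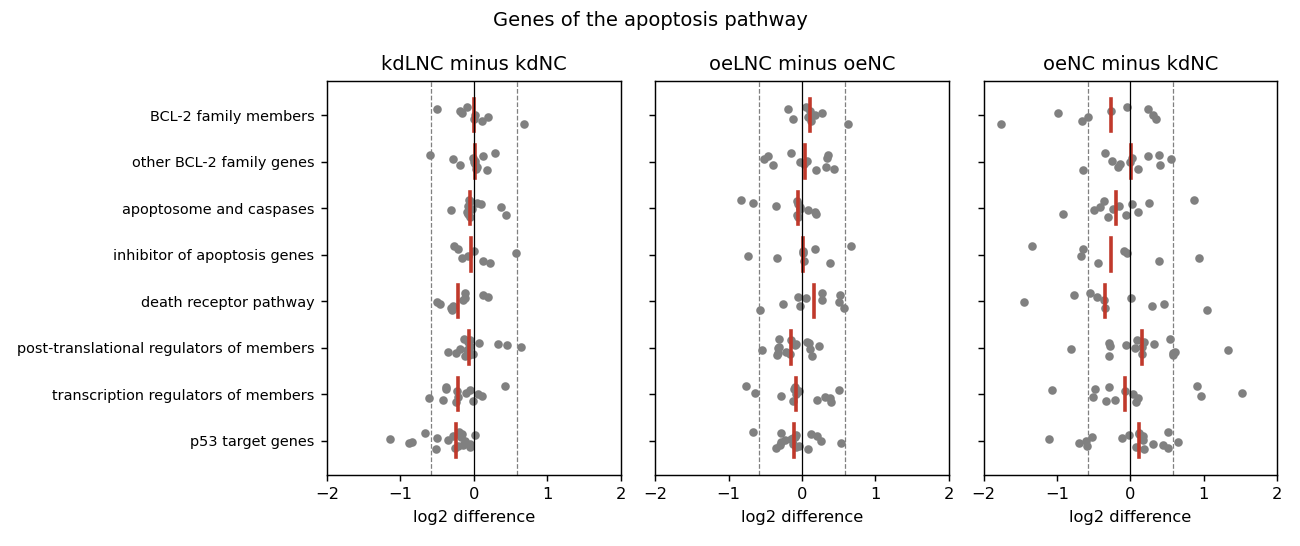
Log2 difference of each measured gene (grey points, brightest probe set) of 8 lists of the death pathway in each comparison, with the list median as a red line and 1.5-fold as dashed lines. The median of the p53 targets is -0.24 in the knockdown panel and 0.11 in the control panel.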

How the data were processed

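Expression was measured on Affymetrix GeneChip Mouse Genome 430 2.0 arrays, 1 for each of 4 groups taken from the labels. As deposited by the authors, each of the 45101 probe sets had an intensity per array, kept on a linear scale. Their notes name RMA, with version and settings not given in the sources used here. Log2 of these values was taken, and each treated array was set against its own control, and the overexpression control against the shRNA control. This was computed with Python 3.11.15, numpy 2.4.6, pandas 2.3.3 and statsmodels 0.14.6. Plots were drawn in matplotlib 3.10.9. By the platform annotation 34958 probe sets had 1 gene, 932 had several and 9211 were unnamed here. A gene entered the counts where either array of the comparison had it above its 50th percentile. Named were all members with every probe set, in each other pathway list up to 3 genes with the largest differences past 1.5-fold in each treated pair, and the 5 genes nearest in pattern to the member with the widest range. Values given for other genes describe the lists and were chosen with values seen. Members and lists were chosen with earlier results of these data known. No test was run, as each group has 1 array. Precision is limited by the number of arrays. Alternatives tried were quantile normalization, loess, median centring, an offset of 16, the mean of all probe sets, removal of probe sets whose probes are shared between transcripts, the mean of both controls, other filters and other folds. The calculation was tested on simulated data.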

Additional observations from a re-analysis of the deposited data

How the results depend on the processing

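No paired analysis was possible because there is only 1 array in a group, and for the same reason no array could be left out. Each of the 20 alternative values of the family medians lay within 0.19 of the value as deposited. This yardstick is the median SD of the control difference over the square root of the 9 genes. It is a convention and no error of the median, as the genes share the same arrays and are not independent. The alternative values ran on both sides of 0 on knockdown, from -0.09 to 0.03, and on overexpression, from -0.07 to 0.18. The count of genes 1.5-fold higher in kdLNC was 0 at 2-fold in place of 1. The count lower in kdLNC was 1 at 1.3-fold and 1 with the mean of both controls in place of 0. The count higher in oeLNC was 0 in place of 1 after median centring, with the offset of 16, with the mean of probe sets, with the mean of both controls, at 2-fold and with the filter at the 70th percentile. Between the controls the mean of probe sets gave 1 gene higher in oeNC in place of 0 and 1 lower in place of 3, and 2-fold gave 1 lower. These 12 counts moved by over 1.5 times, and the other 52 stayed within it. Fold thresholds and filters change counts by construction, and the cause was not tested for the rest. With the mean of both controls, which takes in part of oeNC minus kdNC, Bcl2 had a difference of 1.56 on knockdown and of -0.25 on overexpression, where the direction was turned. Of 180 differences of single genes under the alternatives, 175 moved by less than the control SD, 4 by more and 1 was turned, and 24 changed sign in all. After the values were seen, 3 further counts were run under the alternatives. All 5 Bcl2 probe sets stayed higher in kdLNC under the 5 tried, and 14 to 17 of the 18 p53 targets stayed lower under the 6 tried, and 3 or 4 were lower by 1.5-fold under the 5 run for that count. How far each signal stood above background was not given, a limit that weighs most on dim probe sets.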
